A study of Mus musculus with 10 samples.

Results

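The genes described here were 10 receptors of the tumour necrosis factor (TNF) superfamily, taken by symbol from a table of 55401 genes: Tnfrsf1a, Tnfrsf1b, Ltbr, Tnfrsf12a, Tnfrsf11a, Tnfrsf21, Tnfrsf19, Fas, Cd40 and Ngfr. Total RNA from the cerebral cortex of 10 mice was sequenced, 5 with traumatic brain injury (TBI) and 5 controls, 1 library per mouse. The sample titles name the controls Sham, whereas the design text of the series names them naïve, and the title's name is used below. The injury model, time after injury, strain, age and sex were not given in the sources used here. Levels are FPKM, fragments scaled to transcript length and library size, and ± is the SD of 5 libraries.

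TNF superfamily receptors are mostly membrane proteins, and most bind trimeric ligands, many of which are made by immune cells and glia. One class carries a death domain inside the cell and can recruit adaptors that lead to caspase-8 activation or, through RIPK1, to NF-kappaB signalling. Another class has no death domain and mostly binds TRAF adaptors, which connect to NF-kappaB and kinase pathways. In the brain, TNF acting on its pair of receptors is known to take part in glial activation and in the regulation of synapses.

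Of the 10 receptors, 9 passed the expression filter of at least 0.5 FPKM in at least 5 of the 10 libraries, and Cd40 did not. Tnfrsf1b, Tnfrsf1a, Ltbr and Tnfrsf19 rose in TBI cortex, and for each of these 4 all TBI libraries lay above all Sham libraries. The rises were 2.43-fold, 1.87-fold, 1.503-fold and 1.31-fold. The other 5 tested receptors did not pass the test, and none of the 9 was called lower. At an unadjusted p under 0.05 with edgeR 0 of 9 were lower, and 0 were called lower with DESeq2 or limma. For Ngfr the log2 change was -0.45 with an SE of 0.73, so a fall was neither shown nor excluded. A gene was called where its adjusted p from edgeR's quasi-likelihood test was under 0.05. Over all 16316 tested genes, 582 were called higher (3.57%) and 77 lower (0.472%), and 5.60% had all TBI libraries above all Sham libraries. The median log2 change of the 9 tested receptors was 0.28, with 8 of 9 above 0, beside a median of -0.01 over all tested genes.

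Facts of the libraries bear on these values. The deposited totals were 47.6 to 71.3 megacounts (M) per library. If about 4 of these counts stand for 1 sequenced fragment, which is uncertain, the depth was about 11.9 to 17.8 M fragments. TBI replicate 4 was the lowest TBI library for 8 of the 10 receptors. The share of all tested genes lowest in that library was not obtained. TBI replicate 4 also had the lowest sum of the TBI libraries for 6 of 9 cell type marker lists. These were microglia, monocytes and macrophages, neutrophils, astrocytes, endothelium, and mural cells and fibroblasts. The next TBI library was close for endothelium (47.1 beside 47.7 FPKM) and for mural cells and fibroblasts (41.2 beside 41.7 FPKM). TBI replicate 1 had a summed level of choroid plexus markers of 861 FPKM. Sham replicate 3 had 28.3 FPKM and the other libraries 1.30 to 4.98 FPKM. In TBI replicate 1 and Sham replicate 3, Ttr made up most of the sum, at 853 and 27.6 FPKM. Folr1 and Kcnj13 stood at 2.21 and 5.46 FPKM in TBI replicate 1 and at 0.0999 and 0.535 FPKM in Sham replicate 3. This list was chosen after values were seen. Sham replicate 5 had the highest level of hypothalamic peptide genes, 59.4 FPKM. Without TBI replicate 4, without TBI replicate 1 or without Sham replicate 5, Tnfrsf1a, Tnfrsf1b and Tnfrsf19 were still called higher. Ltbr was not called without TBI replicate 1.

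**Figure D1:**
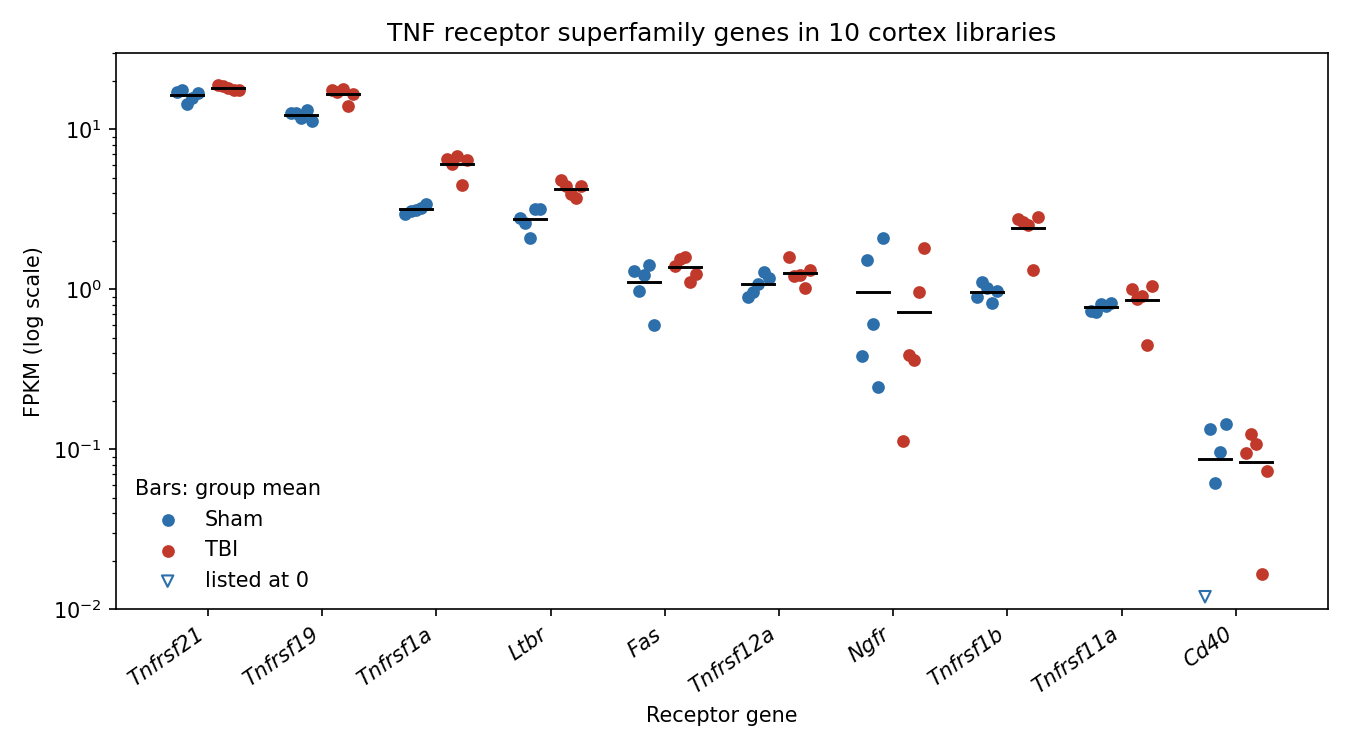
Level of each of the 10 receptors in every library, in FPKM on a log axis, with Sham libraries in blue, TBI libraries in red, black bars at the group means and an open triangle for the Cd40 value listed at 0. The TBI points of Tnfrsf1a, Tnfrsf1b, Ltbr and Tnfrsf19 lie above all Sham points, and the groups overlap for the other 6 receptors.

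The promoter windows of the 4 receptors that rose are shown because these genes moved in the same direction, with Fas because its window was the only one of the receptors not called that held a match. Each window runs from 250 bases before to 50 bases after a RefSeq start on GRCm38.p6 (mm10). It is written 5′ to 3′ on the gene's strand. RefSeq starts can differ from the gene limits in the deposited table. The Tnfrsf1a window lies wholly inside the deposited gene, which begins at 125349362. The upstream Tnfrsf19 window lies wholly before the deposited gene, which begins at 61046490 on the minus strand. Capitals mark matches to the searched motifs: the STAT motif TTCNNNGAA, the AP-1 motif TGANTCA and the interferon response motif GAAANNGAA. In the Tnfrsf1b window the second match is the interferon response motif, which was found on the opposite strand and so reads there as its reverse complement.
Tnfrsf1a, chr6:125349473-125349772, plus strand: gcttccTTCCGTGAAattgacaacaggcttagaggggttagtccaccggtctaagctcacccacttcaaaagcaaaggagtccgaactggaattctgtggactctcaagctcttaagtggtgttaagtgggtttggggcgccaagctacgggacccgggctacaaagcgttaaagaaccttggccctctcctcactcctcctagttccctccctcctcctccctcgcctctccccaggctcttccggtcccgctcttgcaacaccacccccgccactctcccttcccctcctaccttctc
Tnfrsf1b, chr4:145246821-145247120, minus strand: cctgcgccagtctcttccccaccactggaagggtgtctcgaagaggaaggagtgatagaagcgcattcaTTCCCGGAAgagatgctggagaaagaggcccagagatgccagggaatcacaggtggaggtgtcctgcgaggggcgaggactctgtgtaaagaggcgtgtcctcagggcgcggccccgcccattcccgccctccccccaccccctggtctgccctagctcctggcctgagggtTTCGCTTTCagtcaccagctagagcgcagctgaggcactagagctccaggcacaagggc
Ltbr, chr6:125313836-125314135, minus strand: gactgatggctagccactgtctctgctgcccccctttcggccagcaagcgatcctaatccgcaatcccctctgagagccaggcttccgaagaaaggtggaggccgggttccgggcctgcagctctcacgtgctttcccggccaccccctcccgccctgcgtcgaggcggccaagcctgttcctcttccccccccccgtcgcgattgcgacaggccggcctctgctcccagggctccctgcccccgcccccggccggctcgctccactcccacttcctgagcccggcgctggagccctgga
Tnfrsf19 upstream start, chr14:61046806-61047105, minus strand: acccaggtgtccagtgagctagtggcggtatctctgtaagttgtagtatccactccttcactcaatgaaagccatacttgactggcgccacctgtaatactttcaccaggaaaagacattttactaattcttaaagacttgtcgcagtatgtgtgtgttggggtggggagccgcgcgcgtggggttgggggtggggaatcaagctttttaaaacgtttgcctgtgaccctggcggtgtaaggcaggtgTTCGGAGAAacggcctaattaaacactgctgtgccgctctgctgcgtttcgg
Tnfrsf19 internal start, chr14:61037938-61038237, minus strand: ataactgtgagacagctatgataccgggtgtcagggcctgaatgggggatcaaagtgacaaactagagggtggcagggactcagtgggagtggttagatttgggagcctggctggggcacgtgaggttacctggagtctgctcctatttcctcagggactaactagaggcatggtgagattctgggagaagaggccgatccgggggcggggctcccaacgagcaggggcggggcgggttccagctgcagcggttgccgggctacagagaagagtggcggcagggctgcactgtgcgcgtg
Fas, chr19:34290409-34290708, plus strand: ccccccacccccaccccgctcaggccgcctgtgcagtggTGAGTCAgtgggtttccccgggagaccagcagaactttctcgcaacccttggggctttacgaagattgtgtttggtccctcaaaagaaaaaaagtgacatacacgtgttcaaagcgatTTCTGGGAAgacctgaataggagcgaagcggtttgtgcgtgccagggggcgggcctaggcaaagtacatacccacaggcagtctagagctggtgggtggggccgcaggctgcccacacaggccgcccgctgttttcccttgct

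RefSeq windows were found for 9 of the 10 receptors and gave 10 windows, since Tnfrsf19 had a pair of starts. Both strands were searched. The STAT motif was present in 4 of the 10 windows, those of Tnfrsf1a, Tnfrsf1b, Tnfrsf19 (upstream start) and Fas, beside 8.30% of 32851 mouse promoter windows. Counted from the start base as 0, it lay at -244 to -236 in Tnfrsf1a, at -181 to -173 in Tnfrsf1b, at -2 to 6 in Tnfrsf19 and at -93 to -85 in Fas. The interferon response motif was present in 1 window, that of Tnfrsf1b at -9 to -1, beside 8.56% of all windows, and in 0 of the 10 when only the gene's own strand was searched. The AP-1 motif was present in 1 window, that of Fas at -211 to -205, beside 7.81% of all windows. The kappaB motif, a pattern of 10 bases, was in none of the 10 windows. It was in 4.51% of all windows, a share at which 0 of 10 is not unusual. Among the receptors not called, Fas carried 2 of these matches and Tnfrsf12a, Tnfrsf11a, Tnfrsf21 and Ngfr carried 0. Among those called, Ltbr carried 0. A match is a description of letters in the window and says nothing about binding.

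**Figure D2:**
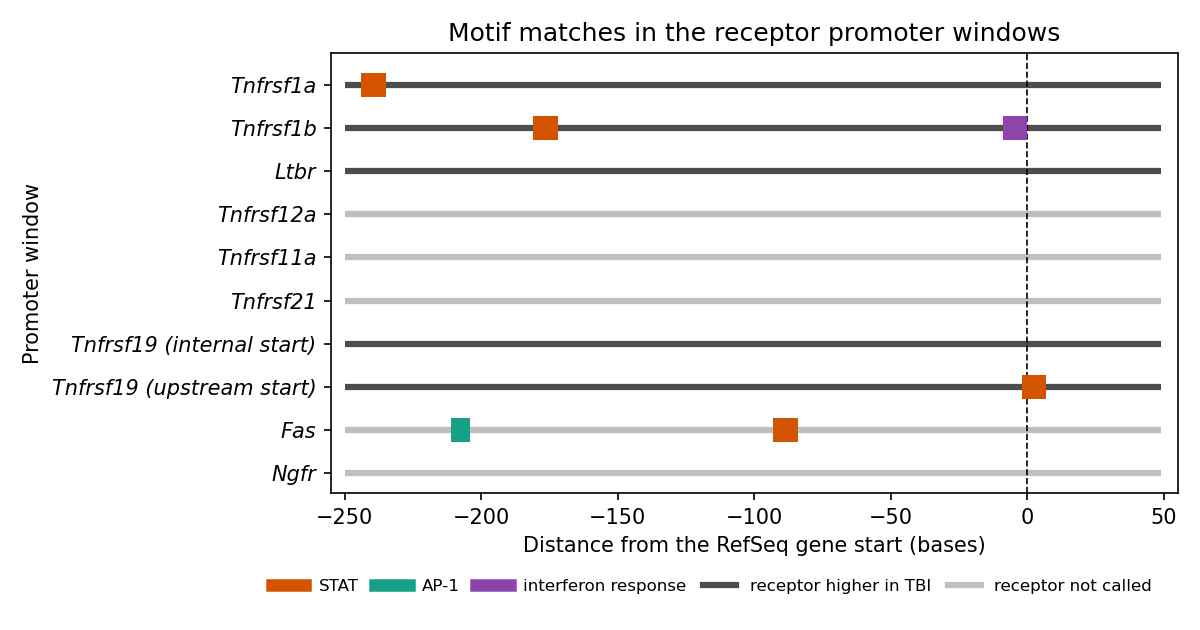
Positions of motif matches in the promoter windows of the receptors, in bases from the annotated start, 1 line per window, dark for receptors called higher and light for those not called, and 1 colour per motif. The STAT motif appears in 4 windows, AP-1 and the interferon response motif in 1 each.

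Of the receptors with a death domain, Tnfrsf1a was called higher and Fas, Tnfrsf21 and Ngfr were not. Tnfrsf1a encodes TNFR1, the receptor through which soluble TNF acts in most cell types. In the deposited table, on mm10, the gene lies at chr6:125349362-125361874 on the plus strand. Tnfrsf1a stood at 6.53, 6.11, 6.77, 4.51 and 6.47 FPKM in TBI replicates 1 to 5 and at 2.98, 3.09, 3.12, 3.24 and 3.41 FPKM in Sham replicates 1 to 5. Even the lowest TBI library, replicate 4, was above the highest Sham library. The means were 6.08 ± 0.907 FPKM in TBI and 3.17 ± 0.166 FPKM in Sham, a log2 change of 0.90 with an SE of 0.11 and an adjusted p of 0.00112. The Sham libraries were close to each other, with a coefficient of variation of 5.23%, beside 14.9% in TBI.

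Fas encodes the receptor of Fas ligand, which starts cell death through FADD and caspase-8. Fas stood at 1.39, 1.54, 1.60, 1.11 and 1.24 FPKM in the TBI libraries and at 1.30, 0.977, 1.23, 1.41 and 0.598 FPKM in the Sham libraries. The groups overlapped, and Sham replicate 5 was the lowest of the 10 libraries. The log2 change was 0.28 with an SE of 0.22 and an adjusted p of 0.641, and without Sham replicate 5 it was 0.12. Tnfrsf21 encodes death receptor 6, known in neurons and oligodendrocyte precursors, and was the most abundant of the 10 receptors in both groups. Tnfrsf21 stood at 18.8, 18.6, 18.2, 17.7 and 17.5 FPKM in the TBI libraries and at 17.0, 17.6, 14.4, 15.8 and 16.8 FPKM in the Sham libraries. In 4 of the 5 TBI libraries it was above all Sham libraries, but the difference was small, a log2 change of 0.12 with an SE of 0.05 and an adjusted p of 0.356.

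Ngfr encodes p75NTR, the low-affinity neurotrophin receptor, which in the adult forebrain is known from basal forebrain cholinergic neurons. Ngfr varied most among the tested receptors, with a coefficient of variation of 93.5% in TBI and 82.2% in Sham. It stood at 0.112, 0.391, 0.359, 0.963 and 1.80 FPKM in the TBI libraries and at 0.384, 1.52, 0.611, 0.245 and 2.08 FPKM in the Sham libraries. The high libraries, TBI replicate 5, Sham replicate 5 and Sham replicate 2, were in both groups. The log2 change was -0.45 with an SE of 0.73 and an adjusted p of 0.847, and it was 0.040 without Sham replicate 5. Summed markers of cholinergic neurons were 2.67, 1.21, 2.21, 6.79 and 6.93 FPKM in the TBI libraries and 3.53, 2.39, 5.08, 0.966 and 9.50 FPKM in the Sham libraries. Their highest values were in Sham replicate 5, TBI replicate 5 and TBI replicate 4, and Sham replicate 2, high for Ngfr, was not among them. Summed striatal markers ranged from 75.6 to 292 FPKM in TBI and from 73.4 to 292 FPKM in Sham. Summed hypothalamic peptide genes were highest in the libraries high for Ngfr. They stood at 59.4 FPKM in Sham replicate 5, 7.94 FPKM in Sham replicate 2 and 4.13 FPKM in TBI replicate 5. The other libraries had 0 to 1.30 FPKM. These marker lists were chosen after the values of Ngfr were seen, and their part in its spread was not tested.

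Among the 6 receptors without a death domain, Tnfrsf1b, Ltbr and Tnfrsf19 were called higher, Tnfrsf12a and Tnfrsf11a were not, and Cd40 was below the filter. Tnfrsf1b encodes TNFR2, which responds mainly to membrane-bound TNF and is known in microglia and other immune cells. The gene lies at chr4:145213463-145246870 on the minus strand. Tnfrsf1b stood at 2.77, 2.62, 2.51, 1.32 and 2.82 FPKM in the TBI libraries and at 0.891, 1.11, 1.02, 0.817 and 0.970 FPKM in the Sham libraries. TBI replicate 4 stood apart from the other TBI libraries and was still above all Sham libraries. The means were 2.41 ± 0.621 and 0.962 ± 0.114 FPKM, a log2 change of 1.28 with an SE of 0.20 and an adjusted p of 0.00345. Without TBI replicate 4 the log2 change was 1.45.

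Ltbr encodes the lymphotoxin beta receptor, which in lymphoid tissue is known for non-canonical NF-kappaB signalling. The gene lies at chr6:125306571-125313885 on the minus strand, 35.5 kb from Tnfrsf1a. Ltbr stood at 4.83, 4.43, 3.95, 3.73 and 4.40 FPKM in the TBI libraries and at 2.79, 2.58, 2.09, 3.17 and 3.19 FPKM in the Sham libraries. The groups did not overlap, although TBI replicate 4 and Sham replicates 4 and 5 were close to each other. The means were 4.27 ± 0.434 and 2.77 ± 0.458 FPKM, a log2 change of 0.59 with an SE of 0.12 and an adjusted p of 0.0224. The call was lost when TBI replicate 1, 2 or 5 was left out (adjusted p of 0.0638, 0.0552 and 0.0566). It was also lost when Sham replicate 1 or 2 was left out (adjusted p of 0.0546 and 0.0646).

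Tnfrsf19 encodes TROY, a receptor known in glial precursors and astrocytes and, with the Nogo receptor, in the inhibition of axon growth. The gene lies at chr14:60963875-61046490 on the minus strand. Tnfrsf19 stood at 17.6, 17.0, 17.9, 13.95 and 16.6 FPKM in the TBI libraries and at 12.7, 12.6, 11.8, 13.1 and 11.3 FPKM in the Sham libraries. TBI replicate 4 was nearest to the Sham libraries and above all of them. The means were 16.6 ± 1.57 and 12.3 ± 0.733 FPKM, a log2 change of 0.39 with an SE of 0.07 and an adjusted p of 0.0125. An annotated gene on the opposite strand overlaps it, and that gene held 3 counts over all libraries beside 48183 for Tnfrsf19.

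Tnfrsf12a encodes Fn14, the receptor of TWEAK, known to rise in injured tissues. Tnfrsf12a stood at 1.59, 1.22, 1.23, 1.02 and 1.31 FPKM in the TBI libraries and at 0.893, 0.965, 1.07, 1.28 and 1.18 FPKM in the Sham libraries. The groups overlapped, with 2 TBI libraries above all Sham libraries, and the log2 change was 0.21 with an SE of 0.15 and an adjusted p of 0.612. Without TBI replicate 1 it was 0.12. Tnfrsf11a encodes RANK, the receptor of RANKL, known from osteoclasts and lymphoid organs. Tnfrsf11a stood at 1.002, 0.869, 0.909, 0.447 and 1.04 FPKM in the TBI libraries and at 0.732, 0.725, 0.814, 0.787 and 0.826 FPKM in the Sham libraries. TBI replicate 4 was below all Sham libraries and the other 4 TBI libraries were above them. The log2 change was 0.10 with an SE of 0.20 and an adjusted p of 0.885, and without TBI replicate 4 it was 0.27 with an adjusted p of 0.238. Without TBI replicate 1 or TBI replicate 5 it was 0.033 and 0.022.

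Cd40 encodes the costimulatory receptor of antigen-presenting cells and was the least abundant of the 10 receptors in both groups. Cd40 had 105 estimated counts over the TBI libraries and 115 over the Sham libraries, from 0 in Sham replicate 1 to 41 in Sham replicate 5. Its means were 0.0835 ± 0.0417 FPKM in TBI and 0.0876 ± 0.0590 FPKM in Sham. In the fit without a filter, which called 1.74% of 32852 genes higher, the log2 change was -0.10 with an SE of 0.77 and an adjusted p of 0.989. No difference was detectable at this depth.

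The order of the mean levels per transcript length was Tnfrsf21, Tnfrsf19, Tnfrsf1a and Ltbr in both groups. In Sham these were followed by Fas, Tnfrsf12a, Ngfr, Tnfrsf1b, Tnfrsf11a and Cd40, and in TBI by Tnfrsf1b, Fas, Tnfrsf12a, Tnfrsf11a, Ngfr and Cd40. The library ranges of Tnfrsf21 and Tnfrsf19 overlapped in TBI and not in Sham. Those of Tnfrsf1a and Ltbr overlapped in both groups. Compared within each library, Tnfrsf21 was always above Tnfrsf19, and Tnfrsf1a always above Ltbr. From Fas to Tnfrsf11a in Sham, and from Tnfrsf1b to Cd40 in TBI, each receptor overlapped the next in order. Within each TBI library, however, Tnfrsf1b was above Fas. The ratio of Tnfrsf1b to Tnfrsf1a levels was 0.390 ± 0.0607 in TBI and 0.305 ± 0.0412 in Sham, with ranges of 0.292 to 0.436 and 0.252 to 0.360 that overlapped. Only TBI replicate 4, at 0.292, lay within the Sham range, and the other TBI libraries, at 0.370 to 0.436, were above it.

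Cell type markers moved beside the receptors, and their counts stand beside 3.57% of all tested genes called higher. Of 8 microglial markers 7 were called higher, P2ry12 being the exception, and their summed level was 220 to 392.2 FPKM in TBI and 107 to 119 FPKM in Sham. Monocyte and macrophage markers, 3 of 6 tested and 1 called higher, summed to 28.6 to 106 FPKM in TBI and 6.29 to 7.54 FPKM in Sham. Lyz2, the called member, carried most of that sum, at 67.3 ± 31.7 FPKM in TBI and 5.02 ± 0.621 FPKM in Sham, and Ly6c2 and Mrc1 were tested and not called. Of the 3 below the filter, Ms4a7 was called higher in the fit without a filter, and Ccr2 and Cd163 were not. Neutrophil markers, 1 of 5 tested and called higher, summed to 4.07 to 7.89 FPKM and 1.47 to 1.81 FPKM, with Ly6g at 0 in all libraries. Csf3r, the called member, carried most of that sum, at 5.50 ± 1.28 FPKM in TBI and 1.496 ± 0.333 FPKM in Sham. S100a8, S100a9 and Mmp8 were near 0 with groups that overlapped, and were not called in the fit without a filter. Lymphocyte markers, 0 of 6 tested, summed to 0.250 to 0.540 FPKM and 0.110 to 0.226 FPKM. Astrocyte markers, 2 of 8 called higher, summed to 613 to 763 FPKM in TBI and 372 to 429 FPKM in Sham. Gfap, 1 of the called members with Aqp4, stood at 259.7 ± 67.4 FPKM in TBI and 38.3 ± 6.0 FPKM in Sham. Of 8 endothelial markers 1 was called higher, and of 8 mural and fibroblast markers 2 were, with summed levels whose ranges overlapped between the groups. Neuronal and oligodendrocyte lineage markers, 8 each, had no called member, and the neuronal sum of 714 to 882 FPKM in TBI overlapped the 831 to 969 FPKM in Sham. In bulk tissue labelled cerebral cortex, more cells of a type and more RNA per cell cannot be told apart. The part of these markers in the receptor changes was not tested. The striatal, choroid plexus and hypothalamic marker sums given above also differed between libraries, and the part of the tissue taken was not tested either.

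**Figure D3:**
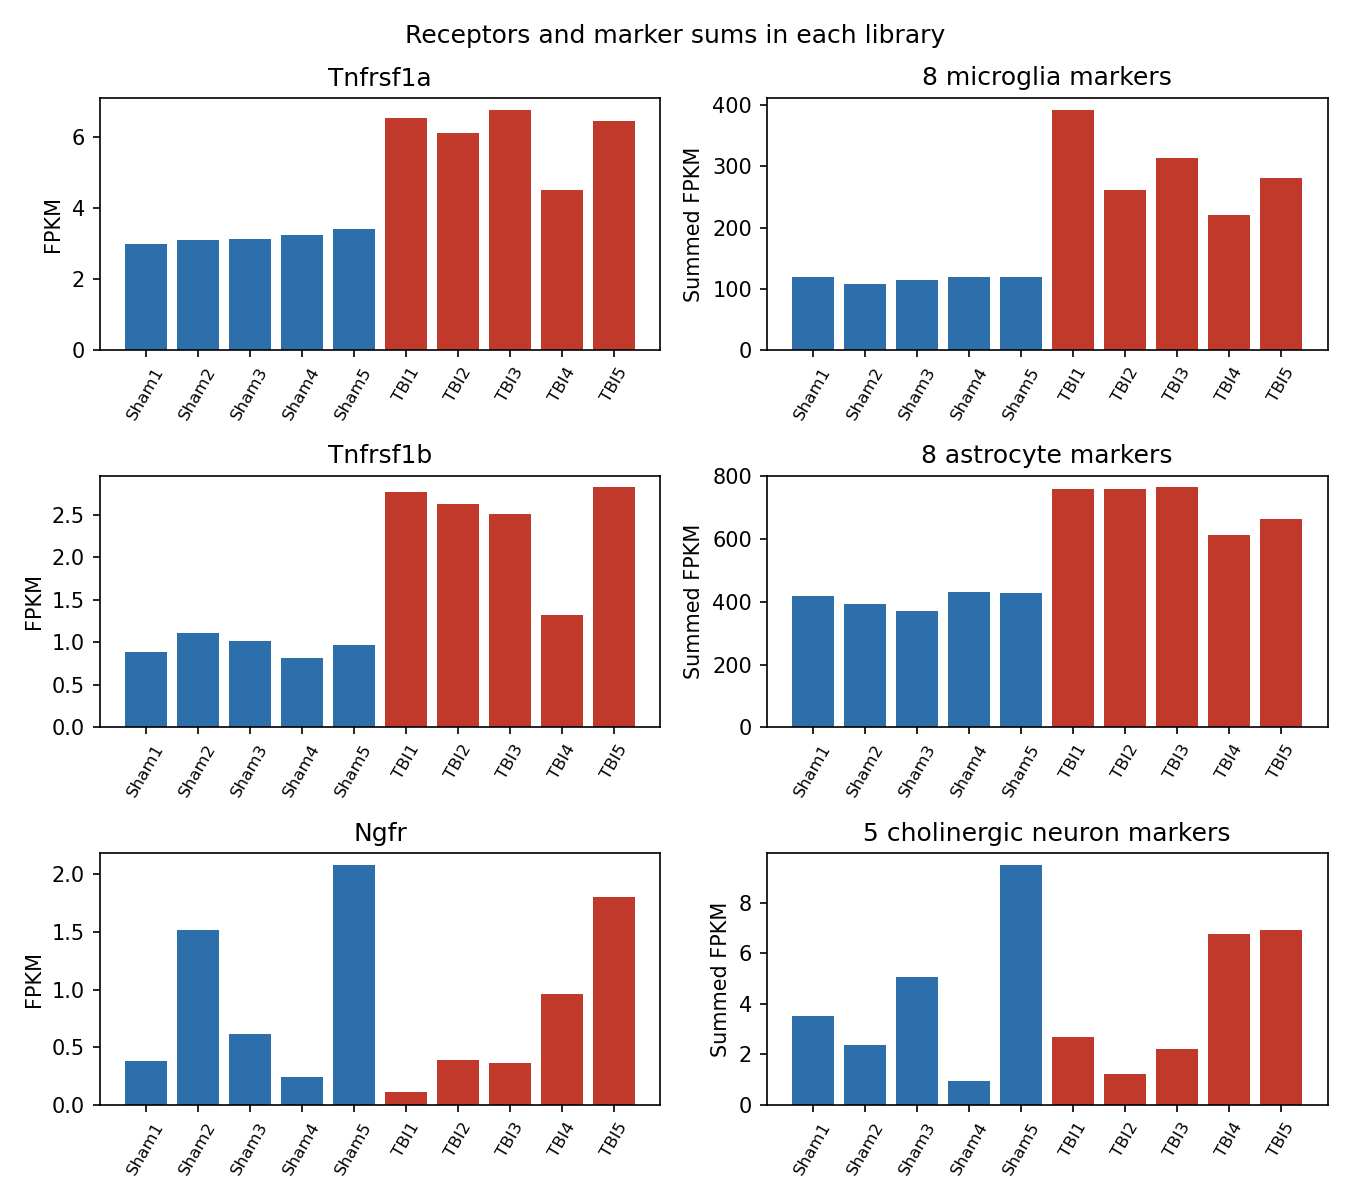
Bars give the level in each library of Tnfrsf1a, Tnfrsf1b and Ngfr (left, FPKM) and of the microglial, astrocyte and cholinergic neuron marker sums (right, summed FPKM), with Sham libraries in blue and TBI libraries in red. Microglial sums are 220 to 392.2 FPKM in TBI and 107 to 119 FPKM in Sham, while Ngfr and the cholinergic sums are high in libraries of both groups.

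The genes whose levels followed each called receptor most closely over the 10 libraries were found by the root mean square difference of centred log2(FPKM + 0.1) among 14075 candidates. For Tnfrsf1a these were Sh3bp2 (0.0728), Kcnk6 (0.0811) and F11r (0.0891), beside a median of 0.497 over the candidates. For Tnfrsf1b they were Cd33 (0.156), Vav1 (0.170) and Stab1 (0.171), beside a median of 0.680. Stab1 and Vav1 are known from macrophages and from blood cell signalling, and Cd33 from myeloid cells. For Tnfrsf19 they were Lamp1 (0.0784), Necap2 (0.0784) and Acvr1 (0.0821), beside a median of 0.279. For Ltbr they were Ftl2-ps (0.0862), Pcolce (0.101) and Ftl1-ps1 (0.108), beside a median of 0.379. Ftl2-ps and Ftl1-ps1 are ferritin light chain pseudogenes whose reads can be shared with the parent gene, so their levels are uncertain. With a pseudocount of 1 the first 3 genes shared with these were 1 for Tnfrsf1a, 2 for Tnfrsf1b, 0 for Ltbr and 2 for Tnfrsf19.

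Of 18 other receptors of the superfamily, 7 were tested and 0 were called with edgeR, beside 4.04% of all tested genes. One of the 7, Tnfrsf11b, had an unadjusted p under 0.05, and DESeq2 and limma called 0. The median log2 change was 0.06. Tnfrsf11b encodes osteoprotegerin, a soluble decoy receptor of RANKL, and stood at 0.916 ± 0.0965 FPKM in TBI and 0.673 ± 0.148 FPKM in Sham, a log2 change of 0.41 with an SE of 0.16 and an adjusted p of 0.269. For Tnfrsf11b all TBI libraries lay above all Sham libraries, as for 5.60% of all tested genes. Tnfrsf4, the costimulatory receptor OX40 of T cells, stood at 0.801 ± 0.183 and 0.670 ± 0.201 FPKM with an adjusted p of 0.759. The 11 receptors below the filter had 0 called in the fit without a filter, beside 1.87% of 32852 genes. Among them Tnfrsf10b also had all TBI libraries above all Sham libraries, with an adjusted p of 0.181 in that fit.

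Of 22 ligands of the superfamily and of Ngfr, 6 were tested, 0 were called higher (also 0 at an unadjusted p under 0.05 and 0 with DESeq2 or limma) and 1, Bdnf, was lower. Over all tested genes 3.57% were called higher and 0.472% lower. The median log2 change was -0.07. Bdnf, a neurotrophin whose precursor binds p75NTR, stood at 2.76 ± 0.315 FPKM in TBI and 4.27 ± 0.730 FPKM in Sham, a log2 change of -0.67 with an SE of 0.12 and an adjusted p of 0.00848. Tnfsf12, which encodes TWEAK, the ligand of Fn14, stood at 4.70 ± 0.719 and 4.12 ± 1.30 FPKM, with an adjusted p of 0.811. Tnf, Lta and Ltb, which encode ligands of Tnfrsf1a, Tnfrsf1b or Ltbr, were near the detection limit. Tnf itself had 15 estimated counts over the TBI libraries, all in replicate 1, and 4 over the Sham libraries, all in replicate 2. Lta and Ltb, which encode the lymphotoxins, had 49 and 82 counts in TBI and 24 and 102 in Sham. Fasl had 38 counts in TBI and 34 in Sham, Tnfsf11, which encodes RANKL, 16 in each, and Cd40lg 0 in all libraries. Apart from Bdnf, these ligands were named because they bind the receptors described above. Differences in Tnf, Lta, Ltb, Fasl, Tnfsf11 and Cd40lg were not detectable at this depth.

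Of 32 genes that act below the receptors, 28 were tested and 2 were called higher, Casp8 and Ripk1, with 0 lower (also 0 at an unadjusted p under 0.05 and 0 with DESeq2 or limma) and a median log2 change of 0.03. Over all tested genes 3.57% were called higher. Casp8, the initiator protease of the death receptors, stood at 1.87 ± 0.256 FPKM in TBI and 0.903 ± 0.177 FPKM in Sham, a log2 change of 1.01 with an SE of 0.15 and an adjusted p of 0.00352. Ripk1, the kinase that binds the death domain of TNFR1, stood at 1.05 ± 0.137 and 0.695 ± 0.0901 FPKM, a log2 change of 0.56 with an SE of 0.12 and an adjusted p of 0.0245. The call of Ripk1 was lost without TBI replicate 1, 2 or 3 or Sham replicate 3 or 5, with adjusted p of 0.0565 to 0.0690. Members that did not pass included Fadd, the adaptor of Fas, at 0.745 ± 0.0710 and 0.588 ± 0.105 FPKM with an adjusted p of 0.357. Adam17, the protease that sheds TNF and its receptors, stood at 3.05 ± 0.392 and 2.24 ± 0.468 FPKM with an adjusted p of 0.219. Traf2, an adaptor of both TNF receptors, stood at 1.84 ± 0.203 and 1.73 ± 0.174 FPKM with an adjusted p of 0.882. Fadd, Adam17 and Traf2 were chosen after their values were seen.

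**Figure D4:**
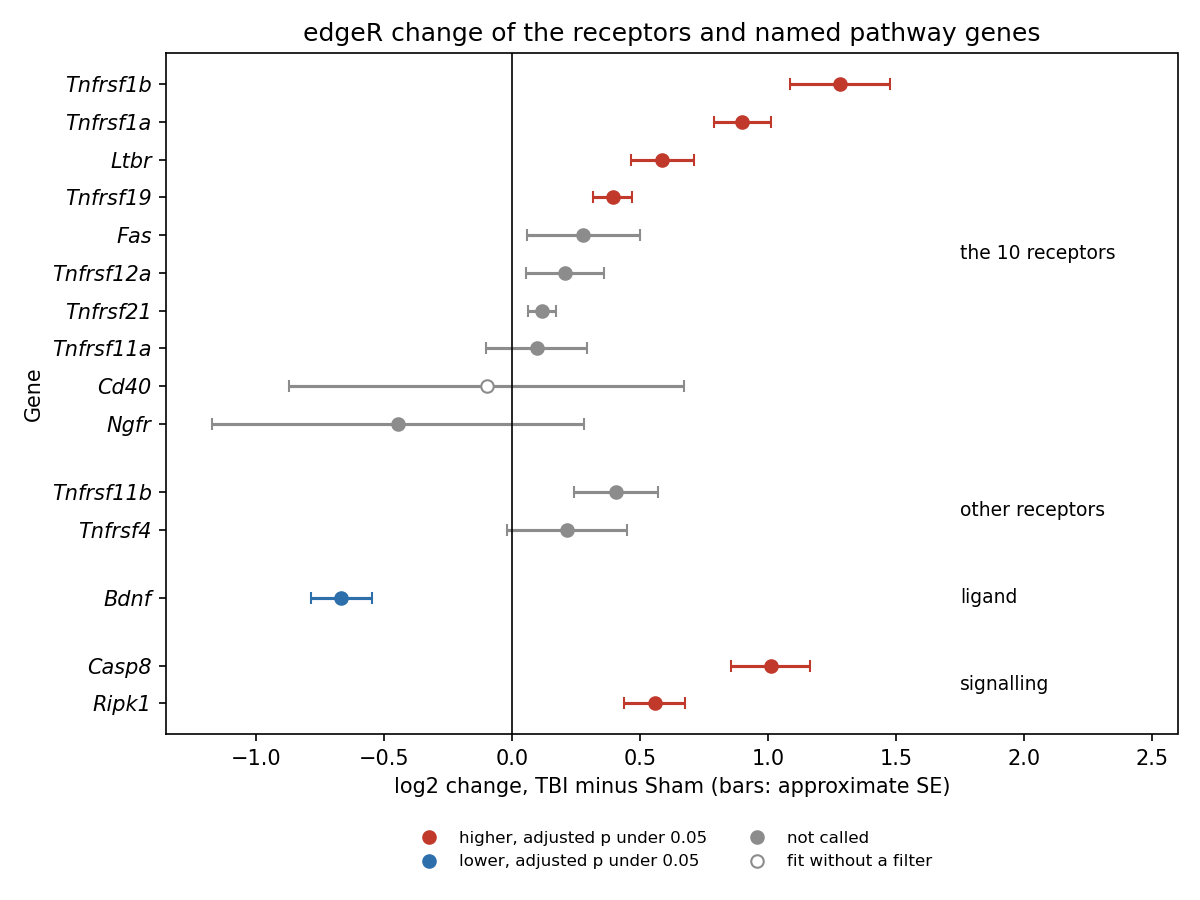
Log2 change, TBI minus Sham, of the 10 receptors and of the other named receptors, ligand and signalling genes, from edgeR with bars of 1 approximate SE; red was called higher, blue lower, grey not called, and the open point is from the fit without a filter. Tnfrsf1b (1.28), Tnfrsf1a (0.90), Ltbr (0.59) and Tnfrsf19 (0.39) lie right of 0 with Casp8 (1.01) and Ripk1 (0.56), and Bdnf (-0.67) lies left.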

How the data were processed

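Total RNA from mouse cerebral cortex was extracted with TRIzol and sequenced as read pairs of 150 bases, per the labels. The submitters' processing notes name cutadapt 1.9, HISAT2, StringTie and the mm10 build; the counting tool was not given in the sources used here. The deposited table holds whole-number estimated counts and FPKM per gene and library, per the file headers, and the FPKM values were normalized by the authors. Among deposited estimated counts from 1 to 12, multiples of 4 made up 42.6% (25% if evenly spread). This may mean that about 4 counts stand for 1 fragment, but most of these counts were not multiples of 4. FPKM at the lowest fill value with a count of 0 were read as 0.

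Groups and replicate numbers came from the sample titles. No libraries of a group agreed within sampling noise (chi-square per degree of freedom of at least 17.0). Nothing beyond the titles ties the replicate numbers of the groups to each other. Estimated counts of the 16316 filtered genes were compared by the two-sided quasi-likelihood F test of edgeR 4.0.16 (R 4.3.3) after TMM scaling, and p-values were adjusted over all of them by the Benjamini-Hochberg method. An approximate SE was obtained by dividing the absolute log2 change by the root of F. Cd40 came from the fit without a filter. The common biological coefficient of variation was 20.9%. Scripts were tested on simulated counts.

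Members, gene lists and tests were chosen with earlier results of these data known. All 10 receptors were named. Other lists were named by up to 4 called members with the largest change, or, lacking any call, by the 2 members of lowest p; further named genes are marked where they occur. For each called receptor the 3 tested genes of most similar profile, with a mean of at least 1 FPKM, were also named. The values of 1 ligand are not reported here. Ngfrap1, 1 of the signalling genes listed, was not found under that symbol. The fit was repeated with the filter removed or raised to 2 FPKM, with scaling by DESeq2's size factors, with DESeq2 1.42.0, with limma 3.58.1 on log2(FPKM + 1) and log2(FPKM + 0.1), on counts divided by 4, with a replicate block, and with each library left out in turn.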

Additional observations from a re-analysis of the deposited data

Results flagged for a closer look

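Of 30 groups of 5 libraries examined for 1 library far from the rest, 2 held such a library, and chance gives about 1 in 20. Tnfrsf1b in TBI replicate 4, at 1.32 FPKM, lay far below the other TBI libraries, whose lowest value was 2.51 FPKM. Bdnf in TBI replicate 2, at 3.31 FPKM, lay far above the other TBI libraries.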

How the results depend on the processing

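Tnfrsf1a and Tnfrsf1b were called higher under every alternative that gave them a value. All genes called higher numbered 337 with a filter of 2 FPKM, 373 with the replicate block and 441 to 659 when 1 library was left out, beside 582. All genes called lower numbered 229 with DESeq2, 48 with a filter of 2 FPKM, 39 and 42 with limma at pseudocounts of 0.1 and 1, 43 with no filter, 29 with the replicate block and 37 to 84 when 1 library was left out, beside 77. Same-numbered deviations from the group means correlated at -0.01, 0.13, 0.11, -0.11 and 0.06, and 2 of the 5 numbers correlated best with their own. Such correlations cannot settle whether the replicate numbers pair the samples. With the replicate block, 2 receptors were called higher, Ltbr had a log2 change of 0.60 (adjusted p = 0.0685), Tnfrsf19 of 0.39 (adjusted p = 0.0782) and Ripk1 of 0.55 (adjusted p = 0.0729), and 1 signalling gene was called higher. When 1 library was left out, 3 to 4 receptors and 1 to 2 signalling genes were called higher, Ltbr ranged from 0.51 to 0.65, and Ngfr from -1.11 to 0.040, the last without Sham replicate 5 (adjusted p = 0.989). With a filter of 2 FPKM, 0 signalling genes were called higher, since Casp8 and Ripk1 were below it. On the gene's own strand alone, 0 receptor windows held the interferon response motif. The cause of the other shifts was not tested. A planned comparison of protein sequences was not run. Depth limits Cd40 and most ligands, which had few counts.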

Other observations

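Among ligands below the filter, Tnfsf18, which encodes the ligand of the costimulatory receptor GITR, had 47 estimated counts over the TBI libraries and 0 over the Sham libraries, with an adjusted p of 0.130 in the fit without a filter. Tnfsf15 had 0 counts in TBI and 22 in Sham, with an adjusted p of 0.422. Both genes were picked after their values were seen. Birc3, an inhibitor of apoptosis recruited by TRAF2, stood at 0.528 ± 0.0804 FPKM in TBI and 0.324 ± 0.0381 FPKM in Sham, with an adjusted p of 0.0659 in the fit without a filter, and was also picked after its values were seen.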
